A study of Mus musculus with 9 samples.

Results

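The enzymes that hydroxylate prolines and lysines of collagen were followed in mammary adipose stromal cells (ASCs) of 3 reproductive stages. The 10 genes were the prolyl 4-hydroxylase subunits P4ha1, P4ha2 and P4ha3, the prolyl 3-hydroxylases P3h1, P3h2 and P3h3 with their partner Crtap, and the lysyl hydroxylases Plod1, Plod2 and Plod3. They were taken by name from the 19930 genes that had a probe set annotated to 1 symbol, and each had exactly 1 such probe set. P3h2 was chosen by its log2 signals in these same arrays, which were already known to be highest in lactation. Its differences between stages are therefore given as a description, with no test.

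RNA of female Balb/c mice was hybridized to Affymetrix Mouse Gene 1.0 ST arrays, with 3 arrays per stage. ASC-Ns came from nulliparous mice of 8 weeks that had not met a male, ASC-Ls from mice at day 5 of lactation and ASC-Is from mice at day 3 of involution, and the labels name no age for the latter stages, no transgene and no agent given to any group. The cells were digested from the gland with collagenase and hyaluronidase, which can carry other cells of the gland along, and the methods of the study describe low passage cultures. All values are log2 signals of probe sets. Because probe sets differ in brightness, stages are compared within a gene. The place of a gene beside the array medians is only a rough guide to its level. The labels do not say which animals each array stands for, so p-values measure the spread between preparations.

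Prolines and lysines of collagen are modified in the endoplasmic reticulum before the chains fold. Prolyl 4-hydroxylase, made of an alpha subunit (P4ha1, P4ha2 or P4ha3) and the beta subunit P4hb, makes the 4-hydroxyproline that keeps the triple helix stable at body temperature. Prolyl 3-hydroxylases modify far fewer prolines, P3h1 in a complex with Crtap and the cyclophilin Ppib, and P3h2 mainly on the collagen IV of basement membranes. Lysyl hydroxylases prepare the lysines that later carry sugars and cross-links, with Plod2 acting on the ends of the chains and Plod3 also adding sugars. All of these enzymes need oxygen, iron, 2-oxoglutarate and ascorbate, and P4ha1, P4ha2 and Plod2 are known targets of the hypoxia-inducible factor. During lactation the adipose part of the gland shrinks as the epithelium expands, and in involution the matrix is rebuilt.

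Of the fibroblast markers, Pdgfra (8.86 to 11.44) and the collagen Col1a1 (12.63 to 13.36) lay above the array medians in all 9 arrays. Lum, Dpt and Cd34 did not, with lowest values of 4.62, 4.53 and 4.94. Adipocyte markers were mixed beside the array medians of 5.93 to 6.0, since Adipoq (3.82 to 4.41) and Plin1 (5.64 to 5.99) lay below or about at them and Lpl (8.97 to 11.38), Fabp4 (7.5 to 8.45) and Pparg (6.63 to 8.26) above. Epithelial signal differed between arrays of the same stage. For 18 luminal markers the mean reached 8.71 in replicate 2 of the ASC-Ls and 7.39 in replicate 2 of the ASC-Is, against 5.59 to 6.78 in the other arrays. In bulk RNA of this kind, fewer cells of a type and less RNA per cell cannot be told apart.

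P3h2 was the 1 hydroxylase gene that separated the stages. Its log2 signal was 6.82, 7.55 and 8.17 in the ASC-Ls, against 6.32, 6.17 and 5.68 in the ASC-Ns and 5.80, 6.37 and 5.89 in the ASC-Is. Every ASC-L array lay above every other array, and the ASC-Ns and ASC-Is overlapped. The gene, which lies at chr16:25959284-26105813 in GRCm38, was thus near the array medians in nulliparous and involuting cells and above them in lactation.

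The stage means of P3h2 were 6.06 ± 0.33 (SD, n = 3) in ASC-Ns, 7.51 ± 0.68 in ASC-Ls and 6.02 ± 0.31 in ASC-Is. P3h2 in ASC-Ls thus exceeded the ASC-N level by 1.46 on the log2 scale (SE 0.33), or 2.74-fold, and the ASC-I level by 1.49 (SE 0.33), or 2.82-fold. Both values use the same ASC-L arrays. ASC-Is and ASC-Ns differed by -0.04 (SE 0.33), so the level at day 3 of involution was close to that before pregnancy, within an error that leaves room for a moderate difference. The spread was widest in lactation, where the lowest and the highest array were 6.82 and 8.17.

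**Figure D1:**
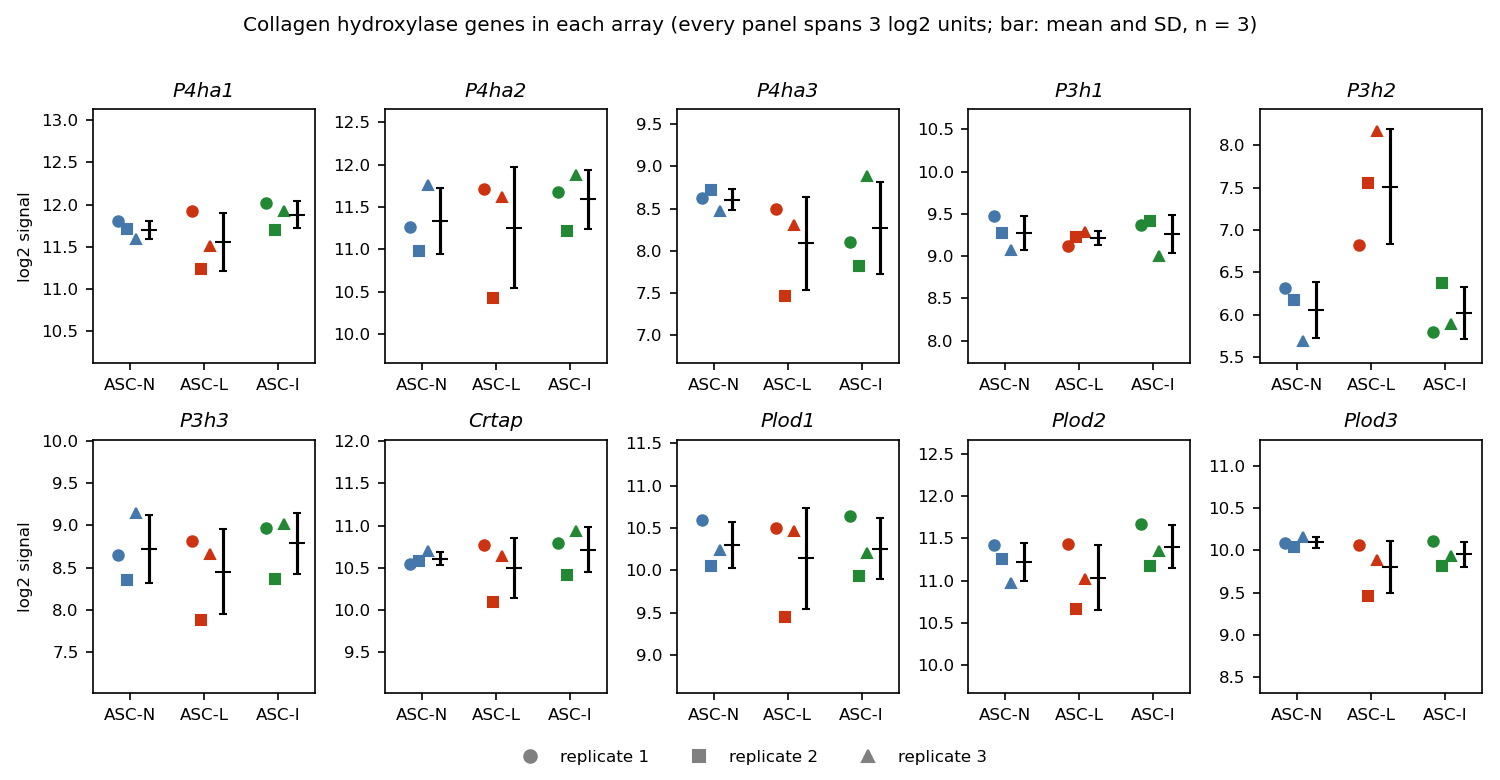
Log2 signal of each hydroxylase gene (vertical axis) in the 3 arrays of each stage (horizontal axis), with replicates by symbol and the stage mean with its SD (n = 3) as a bar. P3h2 shows its ASC-L arrays at 6.82 to 8.17, above all others, and most other genes show their lowest point in ASC-L replicate 2.

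The lowest ASC-L array lay 0.45 above the highest of the other 6 arrays in P3h2. This was the widest such gap of the 19930 genes, with Lipg, an endothelial lipase, next at 0.27, and in all 214 genes (1.07%) had the 3 ASC-L arrays above the 6 others. These ranks use the same values that chose P3h2 and describe its place only.

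Epithelial and endothelial signal was set beside P3h2. In ASC-L replicates 1 and 3 the luminal mean was 5.83 and 5.99, lower than the 6.78 and 6.68 of ASC-N replicates 1 and 2, and P3h2 was higher in the former pair. ASC-N replicate 3, ASC-I replicate 1 and ASC-I replicate 3 went the other way. Their luminal means were lower still, at 5.63, 5.72 and 5.59, and so was their P3h2, at 5.68, 5.80 and 5.89. Without ASC-L replicate 2, the P3h2 level of ASC-Ls was above that of ASC-Ns by 1.44 (SE 0.38) and above that of ASC-Is by 1.48 (SE 0.38). With both epithelium-rich arrays left out, the differences were 1.44 (SE 0.37) and 1.65 (SE 0.41). Of 12 endothelial genes, 11 had higher means in ASC-Ls than in ASC-Ns and 12 had higher means than in ASC-Is, none called. P3h2 had a Pearson r of 0.38 and a Spearman rho of 0.72 with their mean, and r was 0.13 without ASC-L replicate 2. With the mean of 12 basal epithelial genes r was 0.41 (rho 0.68), and 0.05 without that array. The part of epithelial and endothelial signal in the P3h2 difference was not tested.

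Milk genes had higher means in the ASC-Ls along with P3h2. Over 11 of them the mean was 4.91, 6.10 and 5.10 in the ASC-Ls, above the 4.80, 4.79 and 4.80 of the ASC-Ns and overlapping the 4.87, 5.46 and 4.86 of the ASC-Is, and 10 of the 11 had higher means in ASC-Ls than in ASC-Ns. The largest difference from the ASC-Ns, not called, was that of the casein Csn1s1, 1.81 (SE 0.83). It was at 3.89, 7.51 and 5.29 in the ASC-Ls and 3.70, 3.78 and 3.78 in the ASC-Ns, with no overlap. Wap, a whey protein, was the 1 called (0.81, SE 0.34), at 5.78, 6.90 and 5.57 against 5.40, 5.30 and 5.13. Its call was lost without ASC-L replicate 2, where the difference was 0.40, and without any 1 of the ASC-Ns or ASC-I replicate 3. P3h2 had r = 0.56 (rho 0.65) with the milk mean over 9 arrays, 0.89 without the 2 arrays farthest from its median and 0.38 without ASC-L replicate 2. Of the luminal genes 17 of 18 had higher means in ASC-Ls than in ASC-Ns, and 1, the transcription factor Elf3, was called (0.61, SE 0.14), at 5.48, 5.73 and 5.38 against 4.79, 4.86 and 5.11. Its call was lost without ASC-L replicate 2 (0.51), ASC-N replicate 1 (0.54) or ASC-N replicate 2 (0.58). The part of milk and luminal genes was not tested.

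Of the stromal and adipocyte markers, Pdgfra and Pparg were called between ASC-Ls and ASC-Ns. Pdgfra, a receptor of stromal progenitors, was at 10.65, 8.86 and 10.60 in the ASC-Ls and 11.38, 11.26 and 11.11 in the ASC-Ns, with no overlap, and was called lower by -1.22 (SE 0.51). The call was lost without ASC-L replicate 2, where the difference was -0.63, without any 1 of the ASC-Ns and without ASC-I replicate 1. Of 13 adipose stromal genes, 10 had lower means in ASC-Ls than in ASC-Ns and 3 higher, and Pdgfra was the 1 called. The largest difference of the 13 was that of Lum, higher in ASC-Ls by 1.53 (SE 0.99) with overlapping arrays.

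Pparg, the regulator of fat cell differentiation, was the 1 of 11 adipocyte genes called. It was at 7.61, 8.26 and 7.83 in the ASC-Ns, 6.95, 6.63 and 7.23 in the ASC-Ls and 7.03, 6.74 and 7.42 in the ASC-Is, with differences from the ASC-Ns of -0.96 (SE 0.24) and -0.83 (SE 0.24). The ASC-Ns stood apart from both later stages in Pparg, whereas P3h2 differed in ASC-Ls from both others. Of the 11 adipocyte genes, 7 had lower means in ASC-Ls than in ASC-Ns and 4 higher, with a median difference of -0.03. The part of these markers in the P3h2 difference was not tested.

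Macrophage markers were lower in the ASC-Ls, where P3h2 was higher. The mean of 20 macrophage genes was 6.63, 6.50 and 6.29 in the ASC-Ls and 8.77, 7.09 and 7.64 in the ASC-Is, with no overlap, and all 20 genes were lower in ASC-Ls, 11 of them called. The largest of these were Clec4d (-2.16, SE 0.57), Cybb (-1.81, SE 0.70), Lyz2 (-1.74, SE 0.53) and Adgre1 (-1.57, SE 0.55), and the pan-leukocyte gene Ptprc was called too (-1.34, SE 0.58). The calls of Cybb and Adgre1 were lost without ASC-I replicate 1 (-1.32 and -1.37) or ASC-I replicate 3 (-1.64 and -1.08), that of Cybb also without ASC-L replicate 1 (-1.42), and that of Ptprc without any 1 of the ASC-Ls, ASC-I replicate 1 or ASC-I replicate 3 (-1.53 to -0.89). In ASC-Is against ASC-Ns Clec4d was called higher (1.48, SE 0.57), except without ASC-I replicate 1 (1.0), ASC-I replicate 3 (1.42) or ASC-N replicate 3 (0.97). Over all gene lists 12 genes were called between ASC-Ls and ASC-Is, 21 with the replicate number as a block, and 2, 6 and 5 without ASC-I replicate 1, ASC-I replicate 3 and ASC-L replicate 3. In the ASC-Ns the macrophage mean was 7.98, 7.85 and 5.95, which spans the ASC-L values. Against the ASC-Ns all 20 genes had lower means in the ASC-Ls as well, and 1, the receptor Csf1r, was called (-1.07, SE 0.45), a call lost without any 1 of the ASC-Ls, ASC-N replicate 1, ASC-N replicate 2 or ASC-I replicate 3, where the difference lay between -1.20 and -0.80. Of the defining markers in the ASC-Ls, Adgre1, at 5.37 to 5.52, lay below the array medians of 5.93 to 6.0. Lyz2, at 9.29 to 10.26, lay above them. P3h2 had r = -0.50 (rho -0.33) with the macrophage mean over 9 arrays, and -0.44 without ASC-L replicate 2. Without the 2 arrays farthest from the list's median, ASC-I replicate 1 and ASC-N replicate 3, r was -0.86. P3h2 in ASC-N replicate 3, the array with the least macrophage signal, was 5.68, the lowest of all 9. The part of macrophage signal in the P3h2 difference was not tested.

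A gene was called in a comparison when limma gave an unadjusted p under 0.05 and a change of at least 1.5-fold. By that rule 0.627% of all genes were called between ASC-Ls and ASC-Ns, 0.482% between ASC-Ls and ASC-Is and 0.251% between ASC-Is and ASC-Ns. Of the hydroxylase genes 1 of 10, 1 of 10 and 0 of 10 were called, and the 1 was P3h2, which the choice of genes had already used. With Benjamini-Hochberg adjustment over all genes, limma called 0 genes in each comparison, against 726, 359 and 311 at an unadjusted p under 0.05.

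None of the other 9 genes was called in any comparison. Their smallest unadjusted limma p-values were 0.107 for Plod3 in ASC-Ls against ASC-Ns, 0.0982 for P4ha1 in ASC-Ls against ASC-Is and 0.318 for P4ha3 in ASC-Is against ASC-Ns, with adjusted p-values of at least 0.998. The arrays of the stages overlapped in all of them. Of all genes, 8.59%, 5.56% and 6.54% had stages with no overlap in the respective comparison. At such shares, overlap in all 9 does not set these genes apart from the rest. The data do not show equal levels either, since the 95% intervals of the 9 genes reached from -1.23 to 0.72 in the first comparison, from -1.14 to 0.57 in the second and from -1.05 to 1.06 in the third.

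**Figure D2:**
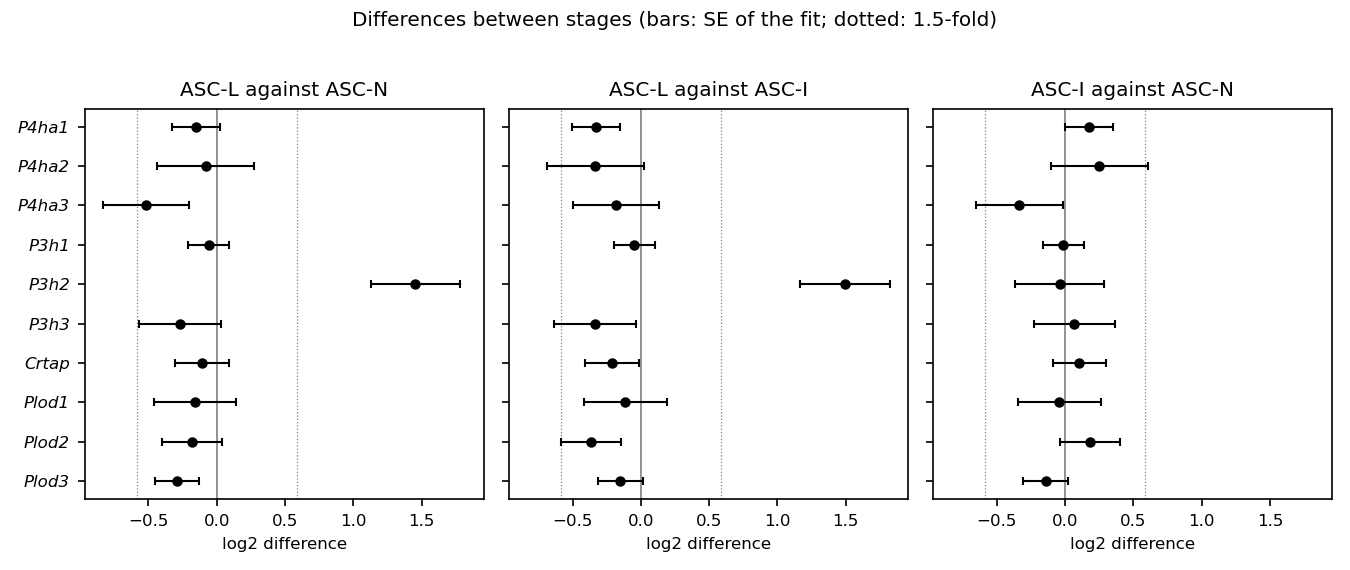
Log2 difference (horizontal axis) of each hydroxylase gene (vertical axis) in the 3 comparisons of stages, with the SE of the fit as bars and 1.5-fold as dotted lines. P3h2 stands at 1.46 and 1.49 in the comparisons with ASC-Ls, and the other 9 genes lie between -0.52 and 0.25.

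The alpha subunits of prolyl 4-hydroxylase showed no called change. P4ha1, the widespread form of the catalytic subunit, measured 11.80, 11.71 and 11.59 in the ASC-Ns, 11.92, 11.24 and 11.51 in the ASC-Ls and 12.01, 11.70 and 11.92 in the ASC-Is. The ASC-L mean was below that of the ASC-Is by 0.33 on the log2 scale (SE 0.18), with overlapping arrays.

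P4ha2, the alternative alpha subunit, varied more within a stage than between stages. It was at 11.27, 10.99 and 11.76 in the ASC-Ns, 11.72, 10.43 and 11.62 in the ASC-Ls and 11.68, 11.21 and 11.88 in the ASC-Is. In each stage replicate 2 was the lowest, and the difference between ASC-Ls and ASC-Ns was -0.08 (SE 0.35).

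P4ha3, a further alpha subunit, gave 8.62, 8.72 and 8.47 in the ASC-Ns, 8.50, 7.47 and 8.30 in the ASC-Ls and 8.11, 7.82 and 8.88 in the ASC-Is. Its difference of -0.52 (SE 0.32) between ASC-Ls and ASC-Ns was the largest among the 9 genes and was not called, with a limma adjusted p = 0.998. The highest ASC-L array and the lowest ASC-N array overlapped by only 0.03.

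The relatives of P3h2 behaved differently from it. P3h1, the prolyl 3-hydroxylase of fibrillar collagens, was at 9.47, 9.28 and 9.07 in the ASC-Ns, 9.12, 9.23 and 9.29 in the ASC-Ls and 9.37, 9.41 and 9.0 in the ASC-Is, the narrowest range of means of the 10 genes. P3h3, another member of the family, measured 8.65, 8.36 and 9.15 in the ASC-Ns, 8.81, 7.88 and 8.66 in the ASC-Ls and 8.97, 8.37 and 9.02 in the ASC-Is. Crtap, the helper protein of P3h1, measured 10.55, 10.58 and 10.70, then 10.77, 10.10 and 10.64, then 10.80, 10.42 and 10.93 in the same order. In ASC-Ls against ASC-Ns the differences were -0.06 (SE 0.15) for P3h1, -0.27 (SE 0.30) for P3h3 and -0.11 (SE 0.20) for Crtap.

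Lysyl hydroxylases also kept overlapping levels. Plod1, which modifies lysines in the helix, was at 10.59, 10.06 and 10.24 in the ASC-Ns, 10.50, 9.45 and 10.47 in the ASC-Ls and 10.64, 9.93 and 10.20 in the ASC-Is. Plod2 was at 11.43, 11.26 and 10.98, then 11.43, 10.66 and 11.02, then 11.68, 11.17 and 11.35. Plod3 was at 10.09, 10.03 and 10.16, then 10.06, 9.45 and 9.89, then 10.11, 9.81 and 9.94. The largest of their differences was that of Plod2 between ASC-Ls and ASC-Is, -0.36 (SE 0.22).

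A single array carried much of what the other genes had in common. In 8 of the 10 genes, all but P3h1 and P3h2, the lowest of the 9 values was that of ASC-L replicate 2, which held the lowest value of 19.8% of all genes. Its distance from the mean of the other ASC-Ls ran from -0.48 in P4ha1 to -1.24 in P4ha2 and was 0.02 in P3h1 and 0.06 in P3h2. The same array had the highest luminal mean, and Pdgfra was 8.86 there against 10.60 or more in the other ASC-Ls. The part of that mixture in the low values was not tested.

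With ASC-L replicate 2, all 9 genes other than P3h2 had lower means in ASC-Ls than in ASC-Ns and in ASC-Is, as did 48.3% and 48.0% of all genes. Their median differences were -0.16 and -0.21, beside 0.01 over all genes in both. Without that array, 3 and 5 of the 9 were lower, with medians of 0.01 and -0.01. In ASC-Is against ASC-Ns, 4 of the 9 were lower, as were 49.1% of all genes, and the median was 0.07.

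**Figure D3:**
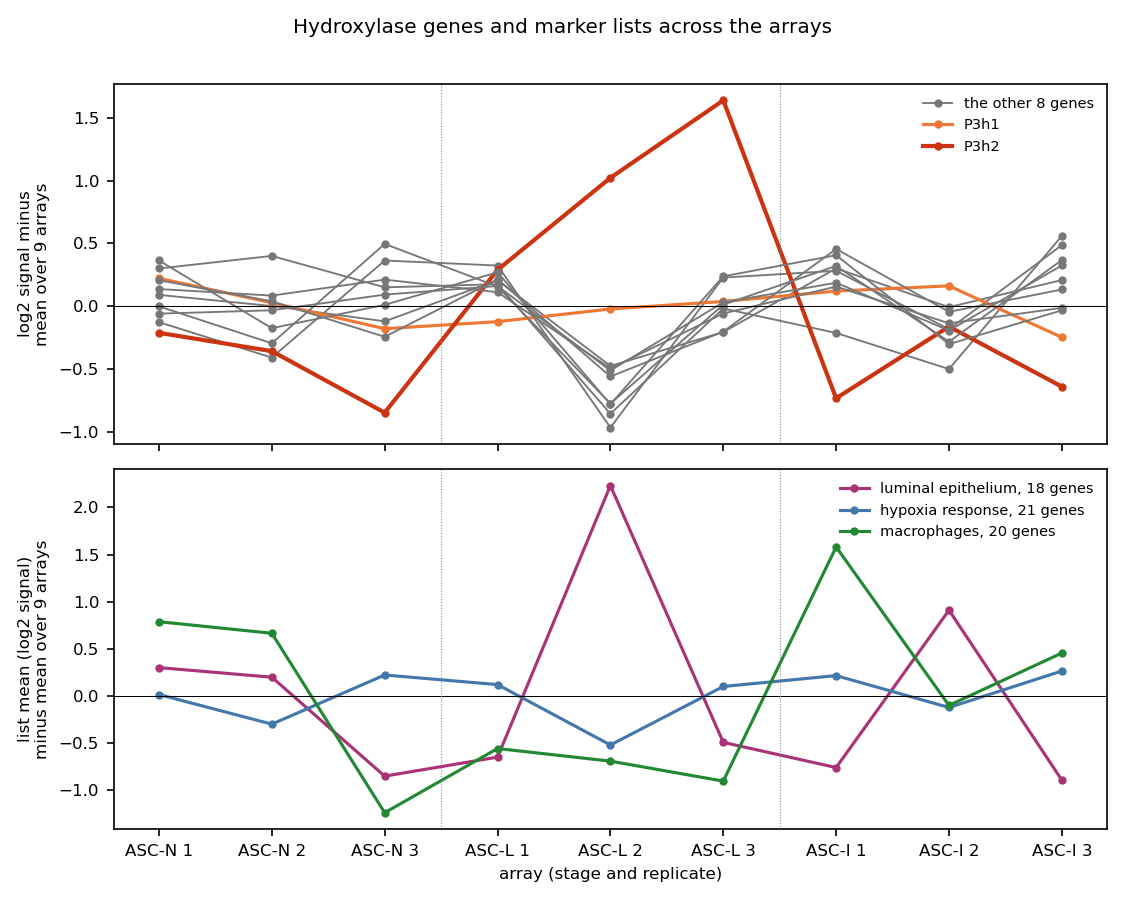
Log2 signal of the 10 hydroxylase genes (top) and the means of the luminal, hypoxia response and macrophage lists (bottom), each minus its own mean over 9 arrays (vertical axes), across the arrays (horizontal axis). Lines only help to follow a gene, since replicates have no order, and ASC-L replicate 2 shows 8 genes at their lowest and the luminal list at its highest.

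Across the 9 arrays the genes fell into pairs and a trio that varied together. P4ha1 and Plod2 had a Pearson r of 0.97 and a Spearman rho of 0.93, and r was 0.94 without ASC-L replicate 2. P4ha2 and P3h3 had r = 0.95 and rho = 0.97, and P4ha2 and Crtap r = 0.93 and rho = 0.88, with 0.89 and 0.82 without that array. These are descriptions over 9 arrays that share the mixture of cells in each preparation.

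Other pairs depended on the 1 array. The 28 pairs among the 8 genes other than P3h1 and P3h2 had a median r of 0.73 over 9 arrays (0.51 to 0.97) and of 0.35 over the 8 arrays without ASC-L replicate 2 (0.04 to 0.94). P3h2 had r between -0.63 and 0.13 with the other 9 genes and thus ran with none of them.

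**Figure D4:**
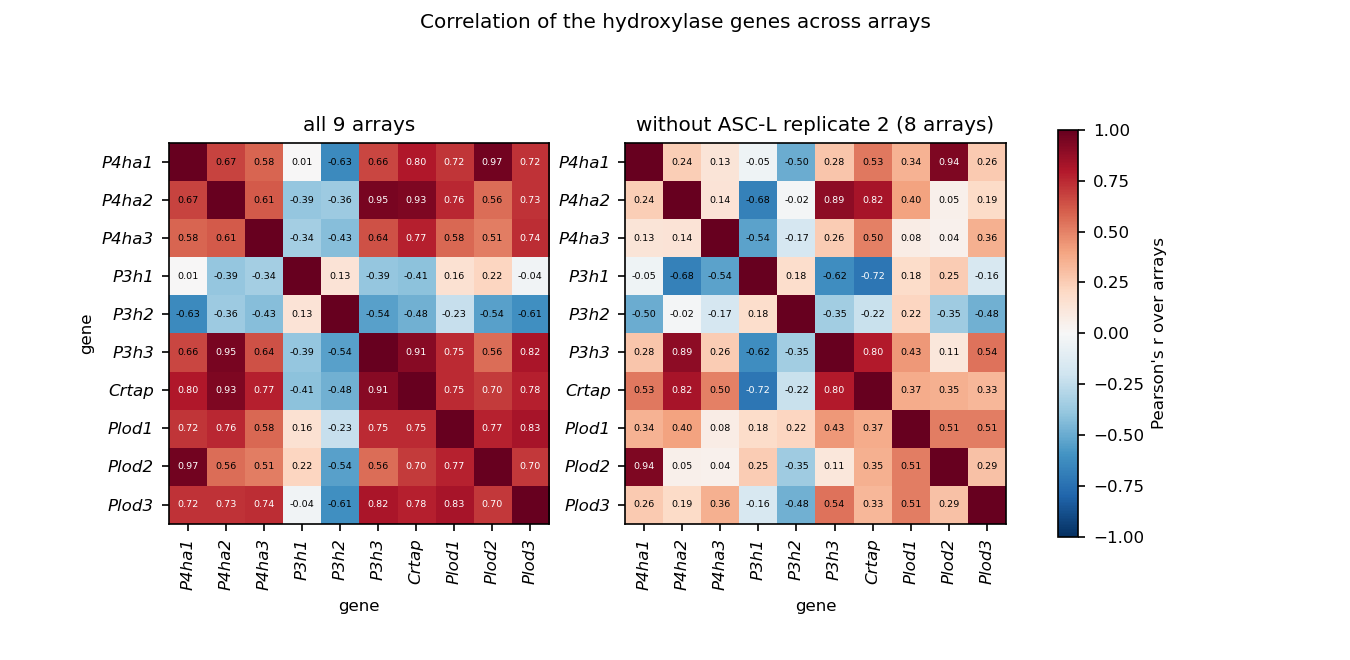
Pearson's r between the hydroxylase genes (both axes) over all 9 arrays (left) and over the 8 arrays without ASC-L replicate 2 (right), from blue for -1 to red for 1. P4ha1 with Plod2 (0.97 and 0.94) and P4ha2 with P3h3 (0.95 and 0.89) stay high on both sides, while most other red squares pale.

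The trio of P4ha2, P3h3 and Crtap also ran with a list of 21 hypoxia response genes that holds none of the 10. The mean of that list was 9.62, 9.31 and 9.83 in the ASC-Ns, 9.73, 9.09 and 9.71 in the ASC-Ls and 9.82, 9.49 and 9.87 in the ASC-Is. It had r = 0.98 and rho = 0.98 with P4ha2, r = 0.97 and rho = 0.98 with P3h3, and r = 0.90 and rho = 0.90 with Crtap. Without the 2 arrays farthest from the list's median, r was 0.93, 0.95 and 0.93.

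The hypoxia targets P4ha1 and Plod2 followed that list less closely. Their r was 0.67 (rho 0.55) and 0.58 (rho 0.37) over 9 arrays, and 0.29 and 0.16 without the 2 farthest. With the macrophage mean they had r = 0.66 (rho 0.75) and 0.77 (rho 0.77), and 0.55 and 0.61 without the 2 farthest. With the mean of 11 fibrillar collagens, the substrates of these enzymes, r was 0.68 (rho 0.62) for P4ha1, 0.80 (rho 0.83) for Plod2 and 0.84 (rho 0.82) for Plod1, and 0.43, 0.62 and 0.80 without the 2 arrays farthest from that median. None of the 21 hypoxia genes was called in any comparison, and their median differences were -0.11 in ASC-Ls against ASC-Ns, -0.19 in ASC-Ls against ASC-Is and 0.19 in ASC-Is against ASC-Ns.

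Epithelial signal varied along with the same trio. The luminal mean had r = -0.95 (rho -0.93) with P4ha2, -0.94 (rho -0.93) with P3h3 and -0.97 (rho -0.95) with Crtap, and without the 2 farthest arrays -0.94, -0.85 and -0.84. P3h2 had r = 0.41 (rho 0.63) with it, and 0.08 without ASC-L replicate 2. A list of 13 TGF-beta and fibroblast activation genes ran against the trio, with r = -0.85 (rho -0.92) for P4ha2, -0.84 (rho -0.87) for P3h3 and -0.87 (rho -0.87) for Crtap, and -0.72, -0.71 and -0.74 without the 2 arrays farthest from that list's median. P3h1 had r = 0.77 (rho 0.70) with it, and 0.96 without those arrays. Which of these measures bears on the genes was not tested.

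**Figure D5:**
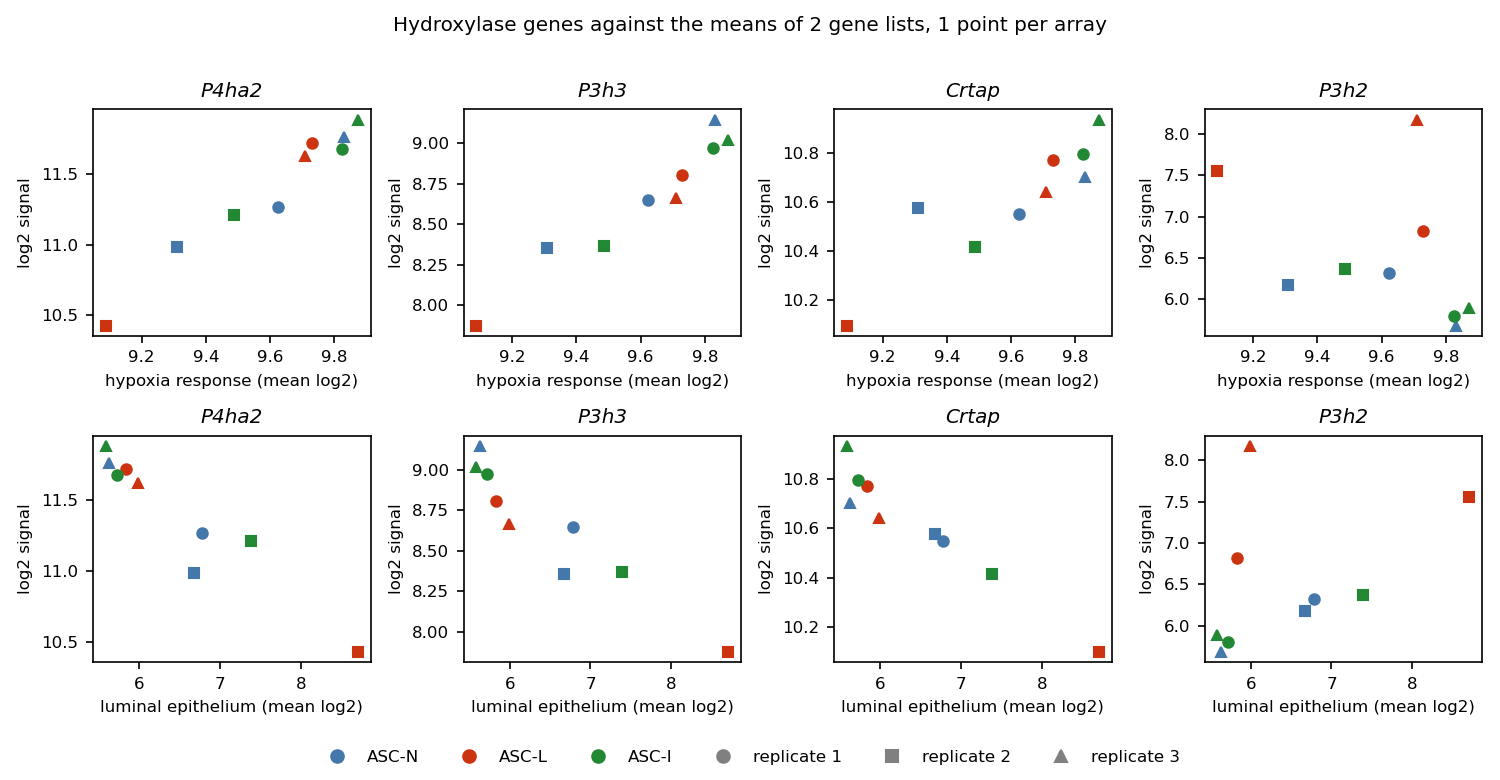
Log2 signal of P4ha2, P3h3, Crtap and P3h2 (vertical axes) against the mean log2 signal of the hypoxia response list (top) and the luminal list (bottom), 1 point per array, with stage by colour and replicate by symbol. The first 3 genes climb with the hypoxia list (r of 0.98, 0.97 and 0.90) and fall with the luminal list, while in P3h2 the 3 ASC-L points lie above the other 6.

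The letters in front of the trio's start sites are shown because these genes tracked the hypoxia list. They are the 250 bases before a RefSeq start, read 5′ to 3′ on the gene's strand in GRCm38.p6, at chr11:54100674-54100923 (plus strand) for P4ha2, chr9:114390713-114390962 (minus strand) for Crtap and chr6:124857718-124857967 (minus strand) for P3h3. Capitals mark ACGTG or GCGTG, the core of the hypoxia response element, on either strand, so that CACGT and CACGC are the same cores read backwards.
P4ha2: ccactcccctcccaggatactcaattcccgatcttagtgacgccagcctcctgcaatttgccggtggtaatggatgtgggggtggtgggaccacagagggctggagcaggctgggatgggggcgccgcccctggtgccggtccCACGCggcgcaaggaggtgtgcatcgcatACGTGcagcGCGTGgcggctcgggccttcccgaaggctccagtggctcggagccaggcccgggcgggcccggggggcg
Crtap: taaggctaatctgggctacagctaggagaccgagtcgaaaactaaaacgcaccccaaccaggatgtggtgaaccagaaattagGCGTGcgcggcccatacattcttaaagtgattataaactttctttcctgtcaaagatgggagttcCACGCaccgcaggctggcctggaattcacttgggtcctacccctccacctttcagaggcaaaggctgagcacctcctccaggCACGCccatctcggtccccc
P3h3: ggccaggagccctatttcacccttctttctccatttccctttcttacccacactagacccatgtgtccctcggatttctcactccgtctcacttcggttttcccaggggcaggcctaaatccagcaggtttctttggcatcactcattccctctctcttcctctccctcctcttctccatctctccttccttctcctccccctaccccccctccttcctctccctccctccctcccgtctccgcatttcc
The window of P4ha2 holds 3 matches, that of Crtap 3 and that of P3h3 0.

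RefSeq promoters were given for 8 of the 10 genes, and P3h2 and Plod2 were not among them. A match was found in 6 of the 8, with 3 in P4ha1 and 4 in Plod3 as well. P3h1, with 2 matches in each of its windows, had r = -0.31 with the hypoxia list. Among 32851 promoters of the same length, 38.6% held at least 1 match and 6.58% at least 3. Each core contains the letters CG, and these shares were not matched for GC content. The windows of P4ha2, Crtap and P3h3 were 70.0%, 53.6% and 56.0% GC, beside a median of 52.4% over all promoters. P4ha2 and P3h3 were thus alike over the arrays and unlike in these letters, and the matches are a description of sequence only.

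The wider collagen pathway was read from 8 lists with 96 genes, of chaperones, export, cross-linking, fibrillar collagens, collagen IV chains, other basement membrane proteins, related oxygenases and the supply of ascorbate and iron. Of the 96 genes, 0 were called in ASC-Ls against ASC-Ns, 0 in ASC-Ls against ASC-Is and 1 in ASC-Is against ASC-Ns. The shares of all genes were 0.627%, 0.482% and 0.251%, and counts this small cannot be told from them. The medians of the lists stayed between -0.12 and 0.28.

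The direct partners, named for their role, had close means in ASC-Ls and ASC-Ns. P4hb differed by 0.02 (SE 0.11) and Ppib by 0.02 (SE 0.12) between ASC-Ls and ASC-Ns. The collagen chaperones with the largest differences in that comparison were Fkbp14, a prolyl isomerase, at -0.45 (SE 0.21), and Serpinh1, the collagen chaperone Hsp47, at -0.21 (SE 0.15), neither called. Fkbp14 was also the chaperone with the largest difference from the ASC-Is, -0.43 (SE 0.21). Among cross-linking and maturation genes Loxl3, a lysyl oxidase, differed by -0.46 (SE 0.18) and Adamts14, a procollagen protease, by 0.42 (SE 0.28) from the ASC-Ns, and among export genes Sec24d by -0.22 (SE 0.19).

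The fibrillar collagens with the largest differences from the ASC-Ns were Col3a1 at -0.59 (SE 0.46) and Col5a3 at 0.54 (SE 0.45), with overlapping arrays and differences from the ASC-Is of -0.46 and 0.27. Of the other basement membrane genes, the laminin chains Lamb3 (0.98, SE 0.72) and Lama3 (0.84, SE 0.66) differed most from the ASC-Ns. In the ASC-Ls Lamb3 was at 5.80, 8.67 and 5.80 and Lama3 at 5.12, 7.51 and 5.36, both highest in the epithelium-rich replicate 2. P4htm (-0.54, SE 0.34) differed most from the ASC-Ns among the related oxygenases and Slc40a1, the iron exporter (-0.56, SE 0.60), in the iron and ascorbate list. None of them was called.

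Collagen IV is the substrate associated with P3h2, and none of its 6 chains passed the call rule. In ASC-Ls against ASC-Ns 4 chains had higher means and 2 lower, with Col4a2 and Col4a1 the largest. Col4a2 was at 9.93, 9.78 and 10.11 in the ASC-Ls, 9.56, 9.48 and 9.45 in the ASC-Ns and 10.18, 9.86 and 9.51 in the ASC-Is, and Col4a1 at 9.67, 9.82 and 9.93, then 9.49, 9.37 and 9.35, then 9.98, 9.90 and 9.33. Both had their 3 ASC-L arrays above the 3 ASC-N arrays, as 8.59% of all genes had their arrays apart in this comparison. The differences from ASC-Ns were 0.44 (SE 0.17) and 0.40 (SE 0.17), with folds of 1.36 and 1.32, under the limit of 1.5-fold. Their unadjusted limma p-values were 0.0297 and 0.0446. Col4a4 also had its arrays apart, with a difference of 0.26 (SE 0.11) and an unadjusted limma p of 0.0467. The limma adjusted p-values of these chains were 0.998, and 3.64% of all genes had an unadjusted p under 0.05. In Col4a2 and Col4a1 the ASC-Is overlapped the ASC-Ls, with differences of 0.09 (SE 0.17) and 0.07 (SE 0.17), where the P3h2 arrays did not overlap. The largest differences from the ASC-Is were in the other direction, -0.50 (SE 0.37) in Col4a5 and -0.11 (SE 0.14) in Col4a6, and these chains also differed from the ASC-Ns by -0.15 (SE 0.37) and -0.05 (SE 0.14).

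The 1 called pathway gene was Egln3, a prolyl hydroxylase that acts on the hypoxia-inducible factor and not on collagen. It measured 8.16, 7.66 and 8.43 in the ASC-Ns, 8.98, 7.97 and 8.89 in the ASC-Ls and 8.79, 8.60 and 9.05 in the ASC-Is. It rose by 0.73 (SE 0.29) from ASC-Ns to ASC-Is, with an unadjusted limma p of 0.0347 and an adjusted p above 0.999. The call was lost without ASC-I replicate 1, ASC-I replicate 3, ASC-N replicate 1 or ASC-N replicate 2, where the difference was 0.74, 0.61, 0.77 and 0.51.

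The genes most like P3h2 over the 9 arrays, among 5881 with an SD of at least 0.25, were not collagen genes. Arpc5l, a subunit of the actin-nucleating Arp2/3 complex, had r = 0.94 (rho 0.87), Garem1 0.92 (rho 0.95), the sterol exporter Abcg1 0.90 (rho 0.77), Cystm1 0.90 (rho 0.77) and the vomeronasal receptor Vmn1r172 0.89 (rho 0.77). The most opposite were Tmem50b at -0.93 (rho -0.83), Mxd4, a partner of Max, at -0.93 (rho -0.87) and Psrc1 at -0.92 (rho -0.85).

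These genes moved less than P3h2. Arpc5l was at 7.70, 8.03 and 8.19 in the ASC-Ls, 7.68, 7.74 and 7.28 in the ASC-Ns and 7.51, 7.73 and 7.46 in the ASC-Is, a difference of 0.41 (SE 0.17) from the ASC-Ns. Vmn1r172 was at 3.22 to 3.93 in all arrays, far below the array medians. Of the 8 genes, Cystm1 (0.60 against ASC-Ns and 0.59 against ASC-Is, SE 0.18) and Mxd4 (-0.60 against ASC-Ns, SE 0.23) passed the call rule. Each was picked for its likeness to a gene with this pattern, so the calls support nothing further.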

How the data were processed

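The deposited values were log2 signals per probe set that the authors had normalized between arrays. The study's methods name robust multi-array average, and the submitters' processing notes name GCRMA and limma, versions not given. They were used with no further normalization. Of 28348 probe sets, 21762 had 1 symbol in the platform annotation, 1621 had several and 4965 none, and probe sets of a gene were averaged to 19930 genes. P3h1 and P3h3 each had 1 further probe set shared with another symbol, which was not used.

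Stage means were estimated over the 9 arrays in limma 3.58.1 under R 4.3.3 (empirical Bayes, prior degrees of freedom 2.91), tested on simulated data. A gene was called at an unadjusted p under 0.05 and 1.5-fold, limits set here since the methods state none. P-values were adjusted over all genes by Benjamini-Hochberg. The number of arrays limits the precision.

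The members and gene lists were chosen with earlier results of these data known. The rule for names took the 10 members, for each list and comparison the up to 4 called genes or 2 uncalled genes with the largest change, the 5 genes most like and 3 most unlike P3h2, and defining cell markers. Of these, the uncalled genes are printed for the collagen pathway lists, mainly for ASC-Ls against ASC-Ns, and not for the marker lists. Exceptions were P4hb and Ppib, and Lpl, Fabp4, Lum, Dpt, Cd34, Csn1s1 and Col4a4, named after their values were seen. Deviations of same-numbered arrays correlated at -0.08, 0.40 and 0.45 (ASC-L with ASC-N), 0.47, 0.73 and 0.46 (ASC-L with ASC-I) and 0.07, 0.43 and 0.50 (ASC-I with ASC-N). The 0.73 was between the 2 epithelium-rich arrays. Arrays of unlike numbers were not compared, so these values do not show that the numbers mark pairs. The labels name no shared litter or day. Alternatives were filters on low signal and low variation, quantile and cyclic loess normalization, a fit per probe set, an intensity trend with a robust prior, array weights, only the stages compared, the replicate block, each array left out and both epithelium-rich arrays left out. Scan dates were not used here.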

Additional observations from a re-analysis of the deposited data

How the results depend on the processing

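The P3h2 level of ASC-Ls was above that of ASC-Ns by 1.13 to 1.80 with each array left out in turn and by 1.31 to 1.47 under the other alternatives, and above that of ASC-Is by 1.17 to 1.84 and by 1.49 to 1.65. ASC-Is differed from ASC-Ns by -0.23 to 0.09 and by -0.25 to -0.04. None of the other 9 hydroxylase genes was called in any comparison under any of the 19 alternatives, and the call of P3h2, fixed by its choice on these values, is no sign of stability. The median r among the 8 genes other than P3h1 and P3h2 was 0.35 without ASC-L replicate 2, an alternative added after the values were seen.

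The number of genes called over all 19 gene lists, markers included, was less stable, and the cause was not tested. In ASC-Ls against ASC-Ns it was 5, and 19 with array weights, 19 with the replicate block, 2 with cyclic loess, 2 with quantile normalization and 1 to 22 with an array left out (ASC-N replicates 1 and 2 gave 1 each, ASC-N replicate 3 gave 22, ASC-L replicates 1, 2 and 3 gave 17, 2 and 10, ASC-I replicate 3 gave 3). In ASC-Ls against ASC-Is it was 12, and 7 with an intensity trend and robust prior, 21 with the replicate block and 2 to 18 with an array left out (ASC-I replicates 1 and 3 gave 2 and 6, ASC-L replicate 3 gave 5). In ASC-Is against ASC-Ns it was 3, and 8 with array weights, 5 with the replicate block, 12 without both epithelium-rich arrays and 1 to 8 with an array left out (ASC-I replicates 1 and 2 gave 1 and 8, ASC-N replicate 3 gave 8). The block changed the call of none of the 10 hydroxylase genes. With 3 arrays per stage and no detection calls, a change under 1.5-fold in a hydroxylase gene may not have been measurable here.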
